A study of Homo sapiens with 12 samples.

Results

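The deposited expression table held 61 chemokines and chemokine receptors among 59276 genes. They were taken by symbol: CCL, CXCL, XCL or CX3CL followed by a number for the 43 ligands, and CCR, CXCR, XCR or CX3CR followed by a number for the 18 receptors. RNA was sequenced from JJN3, a human multiple myeloma cell line, in 12 samples that fall into 4 groups of 3 replicates. DMSO and MS023 cells received the solvent DMSO or 10 µM MS023, an inhibitor of type I protein arginine methyltransferases (PRMTs, the enzymes that place asymmetric dimethylarginine), for 3 days. The isgCtrl and PRMT1-KO groups are Cas9-expressing JJN3 cells with a doxycycline (Dox)-inducible guide RNA, a control guide or the single PRMT1 guide iPRMT1_1, and both received Dox for 3 days. By the Methods, cells with Cas9 were sorted by an mCherry reporter and guide-carrying cells were selected with puromycin, so each guide group is a selected population of 1 cell line, and nothing in the labels says whether replicates were separate cultures. P-values then measure only the spread between these samples.

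Values are log2(TPM+1), where TPM is a gene's length-corrected share of a sample's transcripts. The labels state more than 60000000 read pairs for each sample, but the reads behind a single gene's value are unknown, and with bulk RNA fewer expressing cells and less mRNA per cell cannot be told apart. A gene was tested where its mean log2(TPM+1) was above 1 in either group, and it was called where limma gave an adjusted p under 0.05 (Benjamini-Hochberg over all genes tested) and an absolute log2 fold change above 0.48. An exact permutation test (two-sided) of 3 against 3 samples cannot go below p = 0.1, the value of every gene whose groups did not overlap. For PRMT1, the targeted gene, log2(TPM+1) spanned 8.24 to 8.28 in PRMT1-KO against 9.73 to 9.76 in isgCtrl, a log2 fold change of -1.50 (SE 0.04, limma adjusted p = 7.2e-04), and 9.31 to 9.45 over the DMSO and MS023 samples. Of 9 plasma cell and myeloma markers, all 9 had means above 1 in DMSO and MS023, 8 in isgCtrl and 6 in PRMT1-KO. The control groups themselves differ in these markers: from DMSO to isgCtrl, MZB1 went from a mean of 6.73 to 1.58, SLAMF7 from 3.36 to 0.44, TNFRSF17 from 7.42 to 7.01 and SDC1 from 6.68 to 6.57 on this scale, while XBP1 went from 7.81 to 7.94, IRF4 from 6.58 to 7.31, MAF from 6.41 to 6.81 and PRDM1 from 4.59 to 4.99. CD38 was lower in every isgCtrl sample than in every DMSO sample (mean 2.57 in DMSO).

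Chemokines are small secreted proteins that guide migrating cells by binding seven-transmembrane receptors, which signal mostly through inhibitory G proteins. Plasma cells settle in the bone marrow through CXCR4, the receptor of CXCL12, and CCR10 marks many antibody-secreting cells. Myeloma cells can secrete CCL3 (MIP-1α) and CCL4 (MIP-1β), and CCL3 promotes the formation of bone-resorbing osteoclasts. CXCL9 and CXCL10 are classical interferon-inducible ligands of CXCR3, the receptor of activated T cells.

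Of the 61 genes, 20 (14 ligands and 6 receptors) had a mean log2(TPM+1) above 1 in at least 1 group, and 10 of those were above 1 in all 4 groups. Another 10 were listed at 0 in every sample: CCL11, CCL13, CCL15, CCL16, CCL21, CCL23, XCL1, XCL2, CXCL17 and CXCR5. A further 10 passed 0.5 in at least 1 sample without reaching a group mean of 1, and the remaining 21 stayed between 0 and 0.5. By position in GENCODE v44 on hg38, 19 of the 61 lie on chromosome 17, where most of the CC ligands are clustered, and 10 each lie on chromosomes 3 and 4. CCL3 (chr17:36088256-36090169, minus strand) has a near-identical copy in CCL3L3 (chr17:36194869-36196758, minus strand), and CCL4 (chr17:36103827-36105621, plus strand) has one in CCL4L2 (chr17:36210924-36212878, plus strand). All 4 are annotated as protein-coding. Of the distinct 31-base stretches in their annotated transcripts, CCL3 shares 20.9% with CCL3L3 and CCL4 shares 18.7% with CCL4L2, so part of the reads cannot be divided between the copies and their summed TPM is given too.

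The 250 bases before the RefSeq transcription start (GRCh38.p14) are shown for 5 genes whose values carry the results, 5′ to 3′ on the gene's strand. The RefSeq table held promoters of 45 of the 61 genes. CXCL9 (chr4:76007510-76007759, minus strand) and CXCL10 (chr4:76023498-76023747, minus strand) are neighbouring interferon-inducible ligands. XCR1 (chr3:46027484-46027733, minus strand) is among several receptors that were near 0 in the guide groups, as were CX3CR1, CXCR6 and CCR3. Capitals mark an interferon response type motif (TTTC, any 2 bases, TTTC, on either strand) and in CXCL9 also TATAAA.

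CXCL9: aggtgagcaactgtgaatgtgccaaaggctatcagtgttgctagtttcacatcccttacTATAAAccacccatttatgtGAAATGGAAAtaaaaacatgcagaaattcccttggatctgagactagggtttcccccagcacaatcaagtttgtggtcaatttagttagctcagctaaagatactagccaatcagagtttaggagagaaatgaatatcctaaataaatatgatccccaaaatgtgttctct
CXCL10: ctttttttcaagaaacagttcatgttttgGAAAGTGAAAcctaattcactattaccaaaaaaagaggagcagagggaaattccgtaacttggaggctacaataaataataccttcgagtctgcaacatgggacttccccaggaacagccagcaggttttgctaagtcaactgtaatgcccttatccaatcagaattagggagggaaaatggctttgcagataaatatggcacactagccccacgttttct
XCR1: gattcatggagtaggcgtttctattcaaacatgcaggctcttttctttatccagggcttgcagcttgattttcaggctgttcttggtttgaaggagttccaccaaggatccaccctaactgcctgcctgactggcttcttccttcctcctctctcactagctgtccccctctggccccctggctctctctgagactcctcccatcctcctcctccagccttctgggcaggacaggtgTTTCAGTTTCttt

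CCL3 (chr17:36090144-36090393, the farthest upstream of its 3 start sites in the table) and CCL3L3 (chr17:36196759-36197008), both on the minus strand, are shown because the copies share reads. Capitals mark TATAAA.

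CCL3: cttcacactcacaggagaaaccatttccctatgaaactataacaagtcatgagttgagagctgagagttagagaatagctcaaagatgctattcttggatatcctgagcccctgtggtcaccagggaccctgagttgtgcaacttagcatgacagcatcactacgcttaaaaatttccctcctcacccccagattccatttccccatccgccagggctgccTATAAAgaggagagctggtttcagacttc
CCL3L3: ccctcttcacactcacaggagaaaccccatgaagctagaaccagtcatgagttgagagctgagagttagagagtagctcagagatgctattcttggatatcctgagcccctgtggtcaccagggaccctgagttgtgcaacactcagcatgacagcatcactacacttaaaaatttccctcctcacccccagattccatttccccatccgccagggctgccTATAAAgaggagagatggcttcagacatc

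The windows of CCL3 and CCL3L3 were identical in 234 of 256 alignment columns (91.4%), and both held TATAAA from position -29 on. The interferon response type motif began at position -171 from the start in CXCL9, -221 in CXCL10 and -13 in XCR1. Some genes have several start sites, and the 45 genes with a promoter have 59 windows. The motif was present in 4 of the 45 genes (CCR6, CXCL9, CXCL10 and XCR1). By window it was in 4 of the 59 and in 3.02% of all 35116 windows of the table. TATAAA was found in 16 of the 45 genes, by window in 17 of the 59 and in 10.7% of all windows. The NF-kB type motif (GGG, any 2 bases, TTTCC) was found in 7 genes (CCL20, CCR9, CXCL1, CXCL2, CXCL3, CXCL5 and CXCL6). By window it was in 7 of the 59 and in 1.73% of all. The AP-1 type motif TGANTCA was found in 8 genes (CCL7, CCL24, CCL27, CCR2, CXCL8, CXCL11, CXCL14 and CXCR6). By window it was in 9 of the 59 and in 6.57% of all. TGANTCA reads alike on both strands, and no motif contains another. A match describes letters only, and other forms of these motifs were not searched, so a window without a match may hold one.

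**Figure D1:**
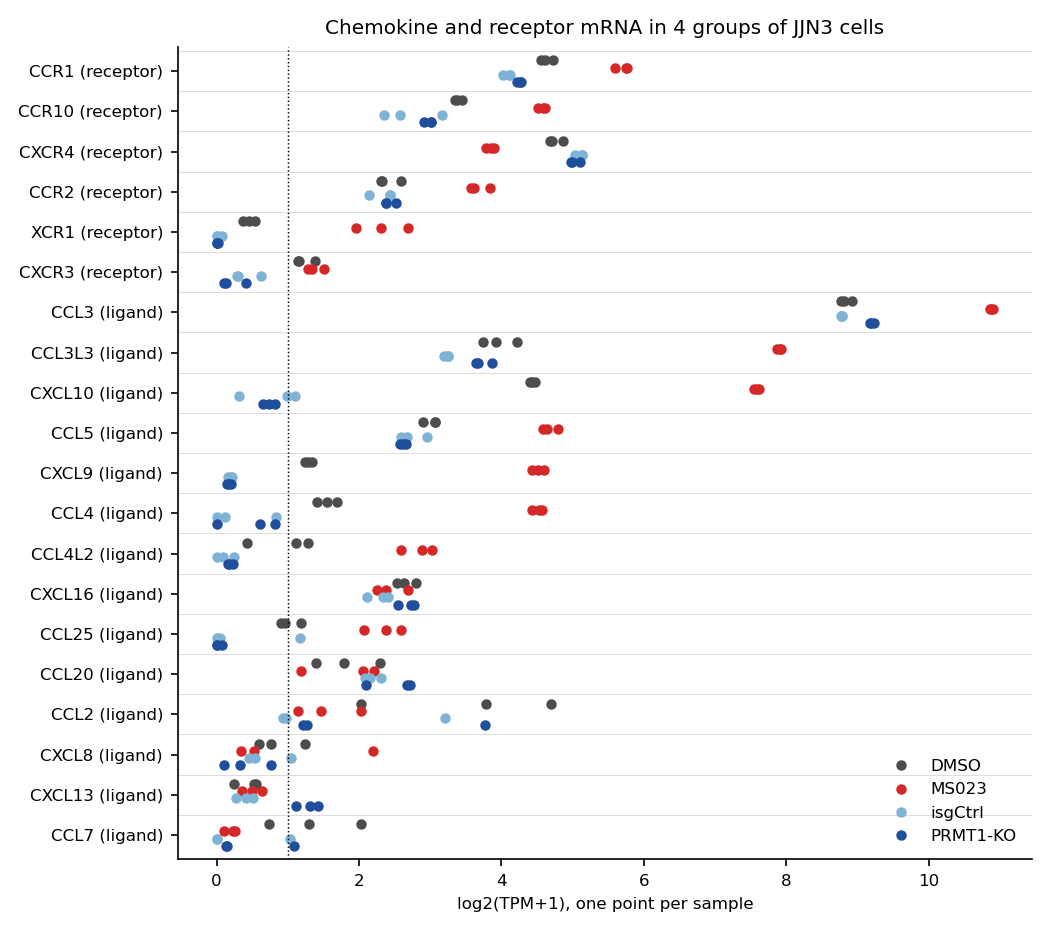
Levels of the 20 genes with a group mean above 1, as log2(TPM+1) on the x axis with 1 point per sample and 1 colour per group. The dotted line marks 1. CCL3 lies between 8.77 and 10.91 in the 12 samples, and CXCL9, CXCL10 and XCR1 reach their highest values in the 3 MS023 samples.

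CCL3 was the most abundant of these genes in every group. Together CCL3 and CCL3L3 made up 85.7% to 97.1% of the summed TPM of all ligands in the 12 samples. In DMSO cells the receptors CXCR4 (4.76 ± 0.10, log2(TPM+1), SD, n = 3) and CCR1 (4.63 ± 0.08) came next and did not differ beyond their spread, followed by CXCL10 (4.44 ± 0.04), CCL3L3 (3.96 ± 0.24), CCL2 (3.50 ± 1.35) and CCR10 (3.39 ± 0.05). In isgCtrl cells the order after CCL3 was CXCR4 (5.10 ± 0.05), CCR1 (4.09 ± 0.05) and CCL3L3 (3.24 ± 0.03), and CXCL10 was at 0.80 ± 0.42.

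MS023 was compared with DMSO to ask which ligands and receptors change under the inhibitor. The inflammatory CC ligands CCL3, CCL4, CCL5 and copies and the CXCR3 ligands CXCL9 and CXCL10 rose by 3.47 to 16.2 times in mean TPM, the receptors CCR1, CCR2 and CCR10 by 2.15 to 2.74 times, and CXCR4 fell to 0.514 times its DMSO level. Of the 15 genes with means above 1 in both groups, 10 were called higher and 1 lower, where 10.3% of all such genes were called higher and 18.9% lower. Their median log2 fold change was 1.27, against -0.11 over all 11620 genes of that kind. Counting also the 4 genes that passed the filter through 1 group alone, 12 of 19 were called higher (background 11.6%) and 2 lower (background 19.3%), or 14 in all (background 30.9%). The groups did not overlap for 15 of the 19, as for 59.5% of all genes tested.

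CCL3 measured 8.92, 8.77 and 8.81 in the DMSO samples and 10.86, 10.87 and 10.91 with MS023, on the log2(TPM+1) scale. All 3 treated samples lay well above all 3 controls. This is a log2 fold change of 2.05 (SE 0.07, limma adjusted p = 5.2e-05), and mean TPM rose from 456 to 1885, or 4.14 times. CCL3L3 was 4.22, 3.93 and 3.74 in DMSO and 7.92, 7.87 and 7.91 with MS023. The groups were far apart, with a log2 fold change of 3.94 (SE 0.13, limma adjusted p = 5.2e-05), a 16.2-fold rise in mean TPM. The summed TPM of the pair was 501, 450 and 460.5 in DMSO and 2103, 2110 and 2158 with MS023, a log2 fold change of 2.17 (SE 0.07, limma adjusted p = 5.4e-05). Within that sum the share of CCL3L3 went from 2.68% to 3.53% in the DMSO samples to 11.1% to 11.5% in the MS023 samples, with no overlap. How the shared reads were divided between the copies was not tested.

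CCL4 was 1.41, 1.55 and 1.69 in DMSO and 4.57, 4.44 and 4.52 with MS023, a log2 fold change of 2.96 (SE 0.09, limma adjusted p = 5.2e-05). Its copy CCL4L2, which passed the filter through MS023 alone, was 0.43, 1.29 and 1.12 against 3.02, 2.89 and 2.59. Neither gene overlapped between the groups. Summed, the pair had 1.998, 3.38 and 3.40 TPM in DMSO and 29.9, 27.1 and 27.0 TPM with MS023, a log2 fold change of 2.91 (SE 0.16, limma adjusted p = 1.1e-04). CCL5 (RANTES), which shares the receptor CCR1 with CCL3, was 3.07, 2.91 and 3.07 in DMSO and 4.64, 4.79 and 4.59 with MS023. Every treated sample was higher, and the log2 fold change was 1.66 (SE 0.09, limma adjusted p = 8.95e-05).

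The interferon-inducible ligands also rose with MS023. CXCL10 was 4.48, 4.43 and 4.41 in DMSO and 7.59, 7.55 and 7.62 with MS023, a log2 fold change of 3.15 (SE 0.06, limma adjusted p = 1.1e-05). CXCL9, whose window is printed above beside that of CXCL10, was 1.34, 1.28 and 1.25 in DMSO and 4.60, 4.43 and 4.51 with MS023, a log2 fold change of 3.22 (SE 0.07, limma adjusted p = 2.3e-05). Neither overlapped between groups, and in mean TPM the rises were 9.26 and 15.1 times. The transcripts of CXCL9 and CXCL10 share no 31-base stretch. CXCL11, the third ligand of CXCR3, stayed below 0.5 in every sample.

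CCL25, the ligand of CCR9, was near the filter in DMSO (1.18, 0.96 and 0.90) and was 2.38, 2.59 and 2.07 with MS023, with no overlap and a log2 fold change of 1.33 (SE 0.15, limma adjusted p = 0.0010). CCL7 and CCL2 both attract monocytes, and of them CCL7 was called lower. CCL7 was 1.30, 2.03 and 0.74 in DMSO and 0.25, 0.23 and 0.10 with MS023, a log2 fold change of -1.16 (SE 0.31, limma adjusted p = 0.0236), and it passed the filter through DMSO alone. Its call was lost without DMSO replicate 1 (limma adjusted p = 0.0601) and without any single MS023 replicate (0.0577 to 0.0676). CCL2 (MCP-1) was 3.78, 4.69 and 2.03 in DMSO and 1.46, 1.15 and 2.02 with MS023. The lowest DMSO sample lay just above the highest MS023 sample, and the log2 fold change of -1.96 (SE 0.67, 95% interval -3.59 to -0.32, limma adjusted p = 0.0527) was not called. Without DMSO replicate 3 it was -2.69 and was called (limma adjusted p = 0.00542).

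The other ligands did not pass the test with MS023. CCL20, the ligand of CCR6, was 1.79, 2.30 and 1.39 in DMSO and 2.21, 1.18 and 2.05 with MS023, and the groups overlapped across their range (log2 fold change -0.01, 95% interval -0.84 to 0.82, limma adjusted p = 0.979). CXCL16, a membrane-anchored ligand of CXCR6, was 2.63, 2.80 and 2.54 against 2.25, 2.38 and 2.69 (log2 fold change -0.22, 95% interval -0.55 to 0.12, limma adjusted p = 0.233). CXCL8 (interleukin 8), an attractant of neutrophils, was 0.77, 1.25 and 0.59 in DMSO and 0.53, 0.34 and 2.19 with MS023. A single sample, MS023 replicate 3, was high, and it also held the highest CXCL1 (1.51, against at most 0.51 elsewhere) and the highest CD14 (1.62) and CSF1R (0.86), both monocyte markers. CD68 (3.10) and S100A9 (1.51) were also highest in that sample, while LYZ (0.14), ITGAM (0.01), MRC1 (0.02) and FCGR1A (0) were not. Their part in the CXCL8 value was not tested.

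Among the receptors, CCR1, a receptor of CCL3 and CCL5, was 4.73, 4.62 and 4.56 in DMSO and 5.77, 5.59 and 5.76 with MS023, a log2 fold change of 1.07 (SE 0.08, limma adjusted p = 2.7e-04). CCR10, the receptor of CCL27 and CCL28, was 3.37, 3.35 and 3.45 against 4.52, 4.62 and 4.58, a log2 fold change of 1.18 (SE 0.06, limma adjusted p = 1.0e-04). CCR2, the receptor of CCL2 and CCL7, was 2.32, 2.59 and 2.32 against 3.62, 3.57 and 3.85, a log2 fold change of 1.27 (SE 0.11, limma adjusted p = 4.6e-04). The treated samples were higher without overlap for all 3 receptors. XCR1, known from cross-presenting dendritic cells, was 0.55, 0.37 and 0.45 in DMSO and 2.31, 2.68 and 1.96 with MS023 (log2 fold change 1.86, SE 0.18, limma adjusted p = 6.4e-04). It passed the filter through MS023 alone, and its ligands XCL1 and XCL2 were listed at 0 in all 12 samples.

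CXCR4, which retains plasma cells in the marrow, was the receptor that fell. It was 4.87, 4.69 and 4.71 in DMSO and 3.86, 3.79 and 3.89 with MS023, so that no treated sample reached any control. The log2 fold change was -0.91 (SE 0.08, limma adjusted p = 3.7e-04). The median of all genes tested was itself at -0.11, and median-ratio scaling, which moved that median to -0.01, gave -0.80 for CXCR4. Its ligand CXCL12 did not pass 0.63 in any sample. CXCR3, the receptor of CXCL9 and CXCL10, was 1.16, 1.39 and 1.15 in DMSO and 1.34, 1.51 and 1.29 with MS023, with overlapping groups (log2 fold change 0.15, 95% interval -0.10 to 0.40, limma adjusted p = 0.261).

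Genes below the filter were named where at least 1 sample passed 0.5, so high values in 1 group were enough for a gene to be listed. CCL26 was 0.15, 0 and 0 against 0.65, 1.17 and 0.68, while CXCL14 was 0.82, 1.05 and 0.62 against 0.31, 0.02 and 0. These levels are low, and the groups of both genes did not overlap. The share of all genes below the filter without overlap was not counted, so nothing further is read from this. CX3CR1 ranged from 0.24 to 0.43 in DMSO and from 0.61 to 0.68 with MS023, and CCL18 from 0 to 0.10 and from 0.29 to 0.50. CXCL1, CXCL3, CXCL6, CXCL12 and CCR3 overlapped between the groups. Over all 12 samples they ran from 0 to 1.51, 0.62, 0.75, 0.63 and 0.67, in that order.

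**Figure D2:**
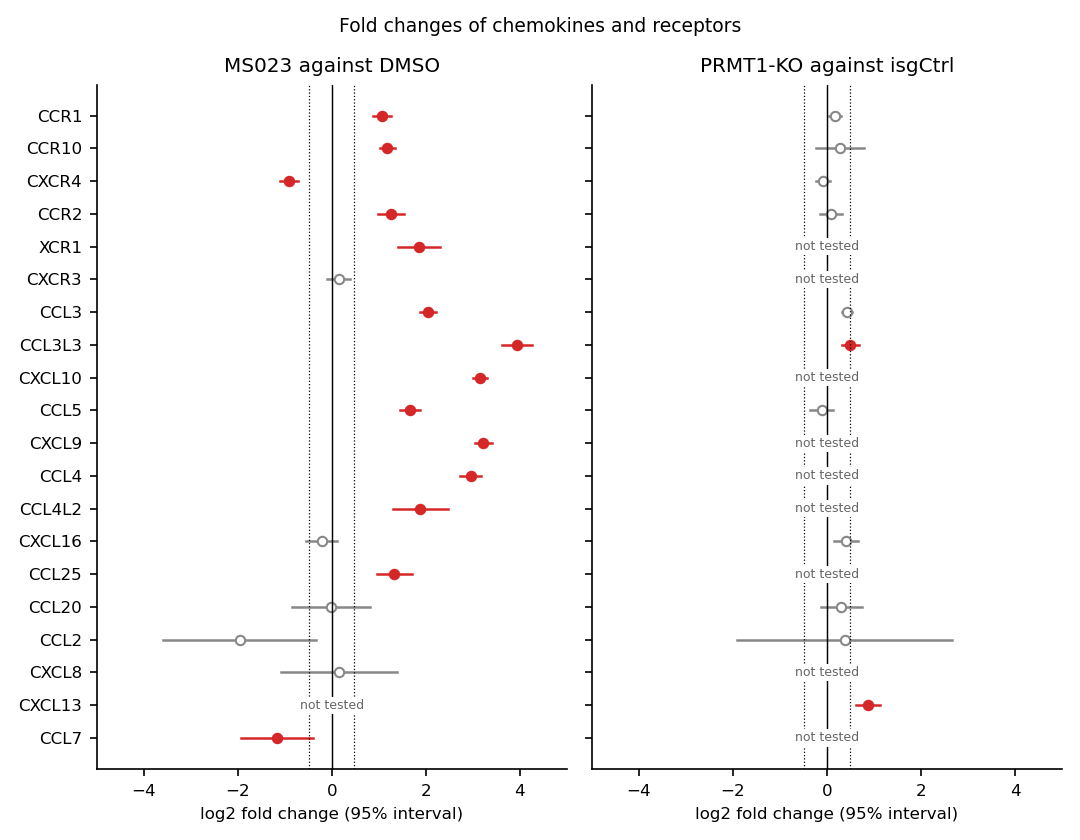
Log2 fold changes of the 20 genes with 95% intervals for MS023 against DMSO (left) and PRMT1-KO against isgCtrl (right). Filled red points passed the adjusted p and the fold threshold (dotted lines at -0.48 and 0.48), and open points did not. On the left 12 genes are called higher and 2 lower, and on the right CCL3L3 and CXCL13 are called higher.

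PRMT1-KO was compared with isgCtrl to ask which of these genes change when PRMT1 itself is targeted. In mean TPM, CCL3 was 1.34 times, CCL3L3 1.46 times and the low-abundance CXCL13 4.45 times higher (0.325 to 1.45 TPM), and the group means of CXCL9 and CXCL10 stayed under the filter. Of 10 genes with means above 1 in both groups, 1 was called higher and none lower, where 0.361% of all such genes were called higher and 0.327% lower. Counting CXCL13, which passed the filter through PRMT1-KO alone, 2 of 11 were called, against 0.781% of all 12285 genes tested. Among the 11, 5 had groups without overlap, as did 26.7% of all genes tested. An unadjusted limma p under 0.05 was found for 5 of the 11, a count with no share over all genes to set beside it. Over the 10 genes the median log2 fold change was 0.29, against -0.04 over all genes of that kind.

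CCL3 was 8.78, 8.77 and 8.78 in isgCtrl and 9.18, 9.19 and 9.24 in PRMT1-KO. The knockout samples were all higher, and the log2 fold change of 0.42 (SE 0.05, limma adjusted p = 0.0296) passed the adjusted p but not the fold threshold. CCL3L3 was 3.25, 3.20 and 3.25 against 3.67, 3.87 and 3.65, with no overlap and a log2 fold change of 0.50 (SE 0.07, limma adjusted p = 0.0484). The summed pair was 448, 442 and 448 TPM in isgCtrl and 589, 597 and 614 TPM in PRMT1-KO. Its log2 fold change of 0.43 (SE 0.05, limma adjusted p = 0.0296) was under the fold threshold, so no call was left for the pair as a sum. CCL3L3 held 1.85% to 1.91% of the sum in isgCtrl and 1.88% to 2.29% in PRMT1-KO, with overlap.

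CXCL13, which draws B cells into follicles, was 0.52, 0.42 and 0.27 in isgCtrl and 1.32, 1.11 and 1.42 in PRMT1-KO. It was higher in all 3 knockout samples, with a log2 fold change of 0.88 (SE 0.10, limma adjusted p = 0.0341), and its receptor CXCR5 was listed at 0 throughout. Leaving out any one of the 6 libraries ended both calls, with limma adjusted p of 0.0991 to 0.149 for CCL3L3 and 0.0899 to 0.119 for CXCL13 and the fold changes at 0.42 to 0.54 and 0.81 to 0.97. CXCL16 was 2.11, 2.34 and 2.41 against 2.73, 2.77 and 2.55, with every knockout sample above every control, and was not called (log2 fold change 0.40, 95% interval 0.14 to 0.65, limma adjusted p = 0.142).

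The other genes tested in PRMT1-KO were not called. CCR1 was 4.12, 4.02 and 4.11 in isgCtrl and 4.27, 4.22 and 4.27 in PRMT1-KO, apart but by little (log2 fold change 0.17, 95% interval 0.04 to 0.29, limma adjusted p = 0.190). CXCR4 was 5.13, 5.13 and 5.04 against 4.97, 4.99 and 5.11, and the groups overlapped (log2 fold change -0.08, 95% interval -0.23 to 0.07, limma adjusted p = 0.540). CCR10 had an isgCtrl sample at 3.17 while the other two were at 2.35 and 2.58, and PRMT1-KO was at 3.01, 3.01 and 2.91 (log2 fold change 0.28, 95% interval -0.23 to 0.79). For CCL5 (-0.12), CCR2 (0.09) and CCL20 (0.31), the 95% intervals of the log2 fold changes included 0. CXCL9, CXCL10, CCL4, CCL4L2, XCR1, CCL25, CXCR3, CXCL8 and CCL7 were below the filter in both guide groups, with group means of 0.80 or less.

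In the DMSO, isgCtrl and PRMT1-KO groups CCL2 had the widest spread of the family, and the sample highest in CCL2 was also highest in CCL7. With MS023, CXCL8 varied more than CCL2, and replicate 3, the highest in CCL2, was the lowest in CCL7. CCL2 was 0.98, 0.94 and 3.21 in isgCtrl and 3.77, 1.27 and 1.21 in PRMT1-KO, so isgCtrl replicate 3 and PRMT1-KO replicate 1 stood apart from their groups. CCL7 was 1.04 and 1.09 in those samples and at most 0.15 in the other 4. The log2 fold change of CCL2 had a 95% interval from -1.91 to 2.66 (0.37, limma adjusted p = 0.860), so no direction can be read at this spread. Genes picked after their values were seen followed the same samples: S100A6, a calcium-binding protein, was 5.42 and 6.02 in them and 3.18 to 4.22 in the other 4, and TPPP3, a tubulin-binding protein, was 2.10 and 2.34 against 0.90 to 1.12. Among DMSO samples, replicates 1 and 2 were above replicate 3 in all 4 genes.

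**Figure D3:**
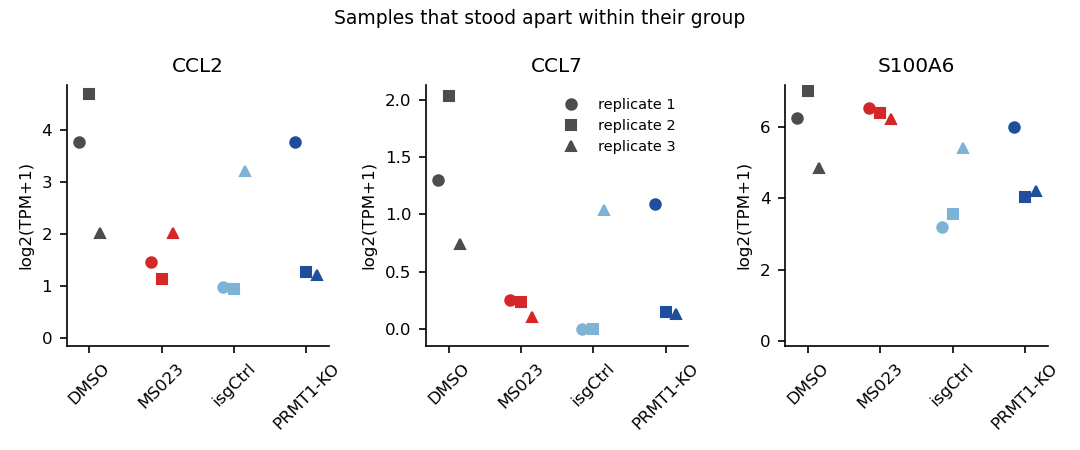
CCL2, CCL7 and S100A6 as log2(TPM+1) in each sample, with 1 colour per group and 1 marker shape per replicate number. The isgCtrl replicate 3 and PRMT1-KO replicate 1 lie above the other samples of their groups in all 3 panels, at 3.21 and 3.77 for CCL2.

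The control-guide cells were also set against the DMSO cells, since both serve as baselines. The labels do not say whether the DMSO and MS023 cells carry Cas9, so Cas9 may or may not differ here. The guide, selection, Dox, the DMSO solvent and any difference in Cas9 cannot be told apart, and this comparison shares its samples with both others. CXCL10 was 4.48, 4.43 and 4.41 in DMSO and 1.10, 0.99 and 0.31 in isgCtrl, a log2 fold change of -3.64 (SE 0.21, limma adjusted p = 3.7e-04) with no overlap. Also lower in isgCtrl were CXCL9 (log2 fold change -1.10), CCL4 (-1.23), CXCR3 (-0.83), CCL3L3 (-0.73), CCR10 (-0.69) and CCR1 (-0.55). CXCL10, CXCL9, CCL4 and CXCR3 had isgCtrl means below 1 and passed the filter through DMSO alone. A lower value was therefore the likely call for them. Of 16 genes tested 7 were called lower and 0 higher by limma, where 6.70% of all genes tested were called lower and 7.23% higher. An unadjusted limma p under 0.05 was found for 10 of the 16, again with no share over all genes beside it. Among the 10 genes with means above 1 in both groups, 3 (CCL3L3, CCR10 and CCR1) were called lower and 0 higher, where the background was 4.60% and 7.22%. The groups did not overlap for 9 of the 16, as for 51.7% of all genes tested.

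CCL3 was not called in this comparison. It was 8.92, 8.77 and 8.81 in DMSO and 8.78, 8.77 and 8.78 in isgCtrl (log2 fold change -0.06, 95% interval -0.20 to 0.09, limma adjusted p = 0.495), and summed with CCL3L3 the log2 fold change was -0.07. CXCR4 was higher in every isgCtrl sample, at 5.04 to 5.13 against 4.69 to 4.87, by less than the fold threshold (0.34, limma adjusted p = 0.0155). The call of CCR10 was lost when isgCtrl replicate 1 or 2 or any DMSO replicate was left out (limma adjusted p = 0.101 to 0.126), and only isgCtrl replicate 3 could be left out without losing it (0.00788).

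The effects of MS023 and of PRMT1-KO were compared in 1 fit of all 12 samples, by the difference of the 2 log2 fold changes. Among the 10 genes above 1 in all 4 groups, 6 had a higher effect with MS023 and 2 a lower one, where 8.22% and 15.8% of such genes did (24.0% in all). Over all 20 tested, 15 differed, 12 higher and 3 lower, against 24.4% of all 13256 genes (9.69% higher, 14.7% lower). The 20 include genes below the filter in both guide groups, where a knockout effect could not be read. The differences were 1.62 for CCL3 and 1.75 for its summed copies, 1.78 for CCL5, 0.90 for CCR1 and -0.83 for CXCR4. The guide targets 1 gene while MS023 acts on the type I enzymes as a class, and the strength of the 2 interventions cannot be matched. The 2 effects also start from different controls, isgCtrl and DMSO, between which 13.9% of all genes tested were called. These differences cannot be told apart in this contrast.

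All ligands summed to 506 to 559.7 TPM in DMSO, 2385 to 2449 with MS023, 462 to 474 in isgCtrl, and in PRMT1-KO 619 to 632. Without CCL3 and CCL3L3 the sums were 45.2 to 75.2, 275 to 292, 18.2 to 25.3 and 18.4 to 34.7 TPM. All receptors summed to 64.0 to 69.4, 104 to 109.9, 58.6 to 60.9 and 59.9 to 63.3 TPM in the same order.

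Other genes of chemokine signalling were followed in a list of 48, of which 31 were tested for MS023. RGS1, which damps G protein signalling of chemokine receptors, was higher with MS023 (log2 fold change 1.68, SE 0.06, limma adjusted p = 5.5e-05), as were the kinases PIK3CG (1.15) and PTK2B (0.69), the exchange factor VAV1 (0.62) and the GTPase RAC2 (0.61). GNAI1, an inhibitory G protein subunit, was lower (-0.95). The other 25 were not called, among them MIF, a CXCR4 ligand, at 11.44 to 11.46 in DMSO and 11.27 to 11.39 with MS023. In all, 5 of the 31 were called higher and 1 lower, where 11.6% and 19.3% of all genes tested were. Over the 30 list genes above 1 in both groups the median log2 fold change was 0.06, against -0.11 over all such genes. In PRMT1-KO 0 of 29 were called by limma, where 0.781% of all genes tested were, so the count says nothing particular about the list. An unadjusted limma p under 0.05 was found for 4 of the 29, with no share over all genes to set beside it. In isgCtrl against DMSO, 1 of 31 was called higher and 4 lower, where the shares of all genes were 7.23% and 6.70%. RGS16 was higher (log2 fold change 1.03), and PTK2B (-2.20), DOCK2 (-1.46), GNG2 (-0.82) and PIK3CG (-0.68) were lower. DOCK2, GNG2 and PIK3CG passed the filter through DMSO alone, where they were higher. Among the 28 list genes above 1 in both groups, 1 was called higher and 1 lower (background 7.22% and 4.60%).

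Most markers of other blood and stromal cells were low. The 4 neutrophil markers summed to at most 0.0180 TPM, the 8 T and NK cell markers to at most 0.794 TPM, with CD3G listed at 0 throughout, and the 5 B cell markers to at most 0.618 TPM. The 10 monocyte and macrophage markers summed to 1.92 to 3.61 TPM in DMSO, 5.83 to 12.6 TPM with MS023, 0.522 to 3.51 TPM in isgCtrl and 0.442 to 1.06 TPM in PRMT1-KO, with LYZ at or below 0.28 in every sample and CD68 at 0.81 to 1.40 in DMSO and 2.40 to 3.10 with MS023 on the log2(TPM+1) scale. The 6 stromal and endothelial markers summed to 2.72 to 5.03 TPM in DMSO and 9.85 to 12.2 TPM with MS023, and to 1.40 to 14.6 TPM in isgCtrl and 0.354 to 2.34 TPM in PRMT1-KO. Among them, PECAM1 was at 0.97 to 1.70 in DMSO and 2.66 to 3.07 with MS023 on the log2(TPM+1) scale. COL1A1 and COL1A2 reached 2.82 and 2.48 in isgCtrl replicate 2, while VWF did not pass 0.154 in any sample. The part of all these markers in the higher chemokine values with MS023 was not tested.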

How the data were processed

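RNA-seq of 12 JJN3 samples was used. The authors trimmed reads with Trimmomatic, used STAR for alignment to hg38 (GENCODE V35) and Salmon for quantification, per the Methods and the submitters' processing notes (tool versions are not given in the sources used here), and they deposited log2(TPM+1) per gene. The TPM total is fixed in each sample, so read depth per gene is unknown and no count model was used. Changes of low genes are understated on this scale.

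Groups followed the samples' labels, and no sample was left out. MS023 was compared with DMSO, PRMT1-KO with isgCtrl and isgCtrl with DMSO, each on its 6 samples, with limma 3.58.1 (R 4.3.3, eBayes without trend, Benjamini-Hochberg adjustment over all genes with a mean above 1 in either group). The difference of effects came from all 12 samples. Calls followed the cutoffs of the Methods (adjusted p under 0.05 with a log2 fold change beyond 0.48 either way). The paper reports far fewer differentially expressed genes for MS023 than were called here, and the reason was not tested. TPM of near-identical copies were recovered from the log values and summed before a refit. ± is the SD of 3 replicates, and single genes also had a two-sided exact permutation test.

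Members of the family, the pathway list and the marker lists were chosen with earlier results of these data known. Every member with a group mean above 1 was named with its values, and members above 0.5 in a sample were named too, except 1 item that is not reported here. Other members are given by count and range. Up to 6 called pathway genes were named for MS023 and for PRMT1-KO, and those named for isgCtrl against DMSO were chosen after their values were seen. Positions and 31-base stretches came from GENCODE v44 and promoters from RefSeq (GRCh38.p14). Alternatives were summed copies, other fold thresholds, filters, pseudocount and scalings, eBayes with trend, a replicate block, 1 fit of all samples and each replicate left out. Simulated data with known changes were used to test the code.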

Additional observations from a re-analysis of the deposited data

Results flagged for a closer look

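The results below stand out because the effect of MS023 (against DMSO) and the effect of PRMT1-KO (against isgCtrl) differed in a limma fit of all 12 samples with Benjamini-Hochberg adjustment. Each value is the MS023 log2 fold change minus the PRMT1-KO log2 fold change, and adjusted p was under the threshold of 0.05 for each.

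Among the inflammatory CC ligands the difference was 1.62 for CCL3, 3.45 for CCL3L3, 1.75 for both copies summed, 2.80 for CCL4, 1.81 for CCL4L2, 2.71 for CCL4 and CCL4L2 summed and 1.78 for CCL5. The ligands of CXCR3 differed by 3.24 (CXCL9) and 3.21 (CXCL10), and CCL25 differed by 1.72. For CXCL13 (-0.82) and CXCL16 (-0.61) the log2 fold change was lower with MS023 than in PRMT1-KO. CXCL13 passed the filter through PRMT1-KO alone, with a mean TPM of 0.365 in DMSO and 0.421 with MS023. The log2 fold change of CXCL16 was negative with MS023 and positive in PRMT1-KO, and neither was called. Among receptors the difference was 0.90 for CCR1, 0.90 for CCR10, 1.18 for CCR2, 1.88 for XCR1 and -0.83 for CXCR4.

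CXCL9, CXCL10, CCL4, CCL4L2, CCL25 and XCR1 were below the expression filter in both guide groups. A knockout effect could not be read at those levels. For these genes the difference therefore rests mostly on the MS023 fold change and does not show that the knockout lacks the effect. For CCL25 the log2 fold change was 1.33 with MS023 and, without the filter, -0.38 in PRMT1-KO, where isgCtrl replicate 2 was at 1.17 and the other isgCtrl samples at 0 and 0.05. With each library left out in turn its difference ran from 1.34 to 1.92. CXCL16 had an adjusted p of 0.0236 and was called no longer after 6 of the 12 single libraries were left out (up to 0.0548). With a pseudocount of 0.1 the adjusted p was 0.107 for CCL4 and 0.0591 for CCL25, so neither was called.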

How the results depend on the processing

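With MS023, the 14 called genes became 11 to 15 under every alternative, and 247 of 260 fold changes of single genes kept direction and side of the threshold. The exceptions there were CCL7 (5 values no longer called), CCL2 (3 values called) and signs of fold changes near 0: CXCL8 at -0.00128 with a pseudocount of 0.1, CCL20 at 0.0688 (median-ratio scaling), 0.0438 (quantile normalization) and -0.23 to 0.30 (a library left out), and PRMT1 itself at -0.0298 with quantile normalization.

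In PRMT1-KO the 2 calls became 1 with copies summed (CXCL13), 1 with log2(TPM+1) above 1 in every sample, 1 with a pseudocount of 0.1, and 0 with an absolute log2 fold change above 1, without the filter, with the replicate block, without isgCtrl replicate 3 and PRMT1-KO replicate 1 together (chosen after seeing the data) and in each leave-one-out fit (0 to 0). Of all genes tested, 96 calls by limma became 46, 94, 83 and 9 without the filter, with every sample above 1, with the pseudocount and with the higher threshold, 157 without a fold threshold, 2 to 21 with a library left out, 2 without both libraries and 0 with the block. The fold change of PRMT1 stayed at -1.50 with the block (limma adjusted p = 0.149) and at -1.50 without both libraries (0.0547). Signs changed with a library left out for CCL2 (-0.47 to 1.13) and CCR2 (-0.00932 to 0.135).

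In isgCtrl against DMSO the 7 calls became 3 with the higher threshold and 3 with every sample above 1, and CCR2 changed sign without isgCtrl replicate 2 or DMSO replicate 2 (-0.117 to 0.0269 with a library left out). The 15 differences between effects became 8 with every sample above 1. All-gene calls changed over 1.5 times by the fold threshold alone in these comparisons: 3986 became 1083 (above 1) or 6300 (none) for MS023, 1763 became 369 or 4373, and 3231 became 921.

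Replicate numbers come from the labels and nothing else pairs the samples. Deviations of same-numbered samples had mean correlations of 0.07, -0.05 and -0.10 in the 3 comparisons, against -0.03, 0.02 and 0.05 for other pairs. The replicate block changed, beside the PRMT1-KO calls, the call of CCR10 in isgCtrl against DMSO (limma adjusted p = 0.0570). Since the reads behind each value are unknown, no detection limit can be given for genes near 0, such as CXCL9 and XCR1 in the guide groups. The cause of a lost call was not tested, except that leaving out a library leaves fewer samples.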
